A study of Mus musculus with 9 samples.

Results

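This account covers the RNA response of mouse osteoblasts to bPTH(7-34), a shortened parathyroid hormone peptide, set against vehicle at 4 h. The groups were chosen by their sample titles: 3 arrays with 1 µM bPTH(7-34) and 3 arrays with vehicle, which together are 6 of the 9 arrays of the series. The other 3 arrays were of cells given 100 nM hPTH(1-34), and they enter here through the shared estimate of the spread and as a side-by-side reading. Every group held primary calvarial osteoblasts, cells isolated from the skull caps of C57BL/6 mice aged 7 to 10 days and used at passage 2. Differentiation began on day 3, serum was withdrawn for 24 h on day 10, and both peptides and vehicle were applied for 4 h in medium without serum. The cells carried no transgene or deletion in the labels. From each sample 100 ng of RNA was hybridised to an Affymetrix Mouse Gene 2.0 ST array. Per the series text each replicate was a separate preparation of cells, but the labels do not say if a preparation was split across treatments, or how many mice were pooled.

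Parathyroid hormone acts on osteoblasts through Pth1r, a G protein-coupled receptor. An agonist such as hPTH(1-34) couples it to Gs, which raises cAMP and activates protein kinase A and CREB, and to Gq, which activates phospholipase C. Arrestins then bind the receptor, take it into endosomes and can serve as a scaffold for ERK signalling. bPTH(7-34) lacks the first residues of the hormone, which are needed to raise cAMP. Residue 12 is replaced by D-tryptophan and residue 34 by tyrosine. The peptide blocks the cAMP response to agonists. It has also been used as a ligand that engages arrestin without Gs, and only RNA was measured here.

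A log2 level was read for 22180 genes, each from its single-symbol transcript cluster (a group of probes for one transcript region) with the highest mean over the 9 arrays. Among the 6 vehicle and bPTH(7-34) arrays, correlations over all transcript clusters ran from 0.977 to 0.981 within a group and from 0.977 to 0.984 between groups. Of 12 osteoblast markers 11 were measured, and Spp1 was not analysed here. Vehicle levels were 12.29 ± 0.11 for Col1a1 (SD, n = 3), 10.88 ± 0.01 for Sparc and 10.21 ± 0.13 for Cdh11. Sp7, an osteoblast transcription factor, stood at 1.45 ± 0.15 and Bglap, the gene of osteocalcin, at 1.25 ± 0.16. Both lie under 1.68, the level below which 95% of 1088 olfactory receptor genes fell in vehicle, used here as a background limit. Ibsp, Dlx5 and Ifitm5 had mean levels between that limit and 4. An array has no read depth, so precision rests on the number of arrays and on the spread between them. In RNA from whole cultures fewer cells of a type and less RNA per cell cannot be told apart.

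No gene differed between bPTH(7-34) and vehicle after adjustment. With limma's moderated test and Benjamini-Hochberg adjustment over all genes, 0 of 22180 genes passed 0.05 (0% called), and the smallest adjusted p was 0.999. At an unadjusted p under 0.05 there were 727 genes (3.28%), 405 of them higher (1.83%) and 322 lower (1.45%) with bPTH(7-34). The arrays of the groups did not overlap in 1156 genes (5.21%). For a single gene, an exact permutation test of 3 against 3 arrays cannot go below 0.1. The median difference over all genes was 0.00 on the log2 scale, with 11333 genes above 0 and 10805 below it.

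Since nothing passed, the result is a set of size limits. For each gene the 95% interval of the difference gives the changes that the arrays leave room for, and its margin is the distance from the difference to either end. The median margin was 0.30 on the log2 scale. For 21627 genes (97.5%) the whole interval lay inside 1 log2 unit either way, which leaves room for less than a 2-fold change. For 17704 genes (79.8%) it lay inside 0.58, or 1.5-fold, and for 22159 (99.9%) inside 2, or 4-fold. These intervals hold gene by gene. Intervals widened to hold for all genes together had a median margin of 1.38. They lay inside 4-fold for 17198 genes (77.5%), inside 2-fold for 2165 (9.76%) and inside 1.5-fold for none of the 22180.

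The limits depended on the level of the gene. The median margin was widest for the 4519 genes with a mean level from 2 to 4, at 0.36, and came to 0.31 for the 4278 genes from 4 to 6. It was 0.27 for the 2328 genes from 6 to 8, 0.25 for the 530 from 8 to 10 and 0.25 for the 119 genes at 10 and over. Intervals inside 1.5-fold made up 66.1% of genes from 2 to 4, 81.1% from 4 to 6 and 90.4% from 6 to 8. Under 2, where 10406 genes lie, the median margin was 0.29 and 82.2% were inside 1.5-fold. Those narrow intervals set no limit on RNA: in 8256 genes (37.2% of all) both group means were under the background limit, where the probes need not report the transcript. The limits by gene function below are therefore given for the 7255 genes with a mean level of 4 and over. Of these, 7085 (97.7%) were inside 2-fold and 6162 (84.9%) inside 1.5-fold. At that level 103 genes (1.42%) had an unadjusted p under 0.05, and 206 (2.84%) without vehicle array 1.

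**Figure D1:**
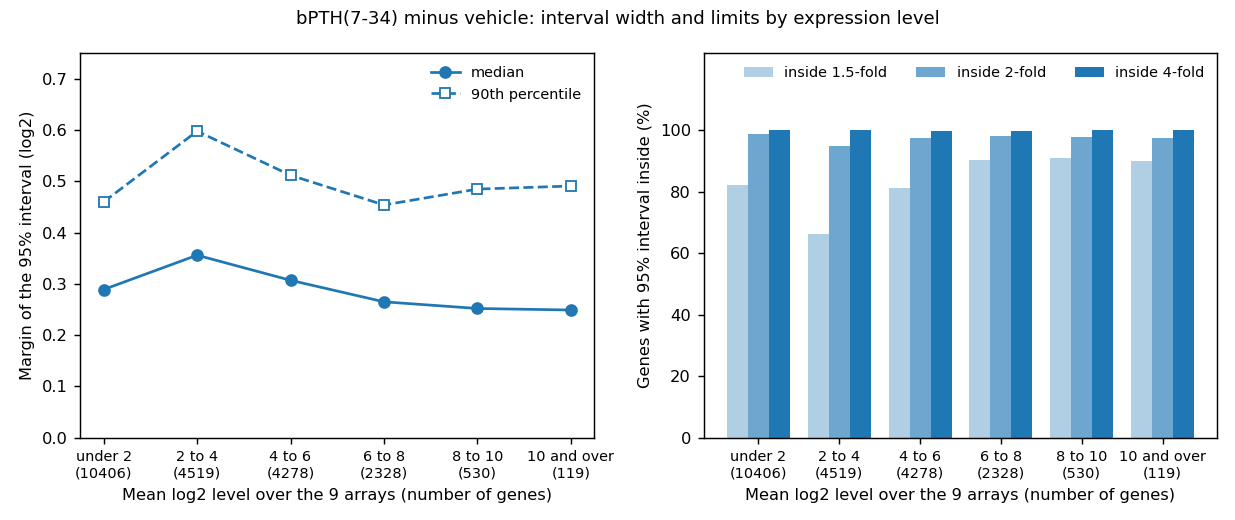
Left, margin of the 95% interval of bPTH(7-34) minus vehicle (log2) by mean level of the gene, as the median and the 90th percentile over genes. Right, percent of genes whose interval lies inside 1.5-fold, 2-fold and 4-fold. The median margin is widest from 2 to 4, at 0.36, and at least 94.7% of genes are inside 2-fold at every level.

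Among named genes at a mean level of 4 and over, Aldh1a1, which makes retinoic acid from retinaldehyde, had the smallest p. Its levels were 4.89, 4.98 and 4.82 in the vehicle arrays and 4.40, 3.66 and 4.33 in the bPTH(7-34) arrays. All 3 bPTH(7-34) arrays were below all vehicle arrays, and array 2 was the lowest. The difference was -0.77 ± 0.18 (SE), with a 95% interval from -1.16 to -0.37, an unadjusted p of 0.00172 and an adjusted p of 0.999. It was -0.53 without bPTH(7-34) array 2. The widened interval, from -2.59 to 1.05, held 0. In the hPTH(1-34) arrays, which share the vehicle arrays with this comparison, the difference was -0.64 (adjusted p = 0.231).

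The next smallest p belonged to Inpp1, a phosphatase of inositol phosphates. Its levels were 5.11, 5.01 and 5.01 with vehicle and 4.72, 4.69 and 4.69 with bPTH(7-34), 2 narrow groups that did not overlap. The difference was -0.34 ± 0.08 (SE; interval from -0.53 to -0.16). Pih1d1, a part of a complex that assembles other protein machines, had 4.53, 4.33 and 4.53 with vehicle and 4.74, 4.90 and 4.91 with bPTH(7-34), with a difference of 0.39 ± 0.09. Pgp, a phosphatase of small metabolites, had 4.74, 4.29 and 4.48 against 5.01, 4.91 and 4.98, with a difference of 0.46 ± 0.12. Neither of these overlapped between groups.

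Of the other 6 genes of the 10 with the smallest p, Emg1 (a ribosomal RNA methyltransferase), Golga1 (a Golgi protein) and Stx2 (a membrane fusion protein) had differences of 0.36, 0.44 and 0.52. Fbxl15 (an F-box protein), Flvcr2 (a transporter) and Hacd3 (an enzyme of fatty acid elongation) had differences of -0.53, -0.44 and -0.30, and that of Fbxl15 was -0.36 without vehicle array 3. The groups overlapped for Stx2 alone among the 10, where 1 array of each read 5.37. Picking by p from the same values favours groups that do not overlap. Of all 7255 genes at a mean level of 4 and over, 291 (4.01%) did not overlap. All 10 had an adjusted p of 0.999, and no theme was tested among them. Their upper and lower limits stayed inside 1 log2 unit for every gene of the 10 but Aldh1a1.

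**Figure D2:**
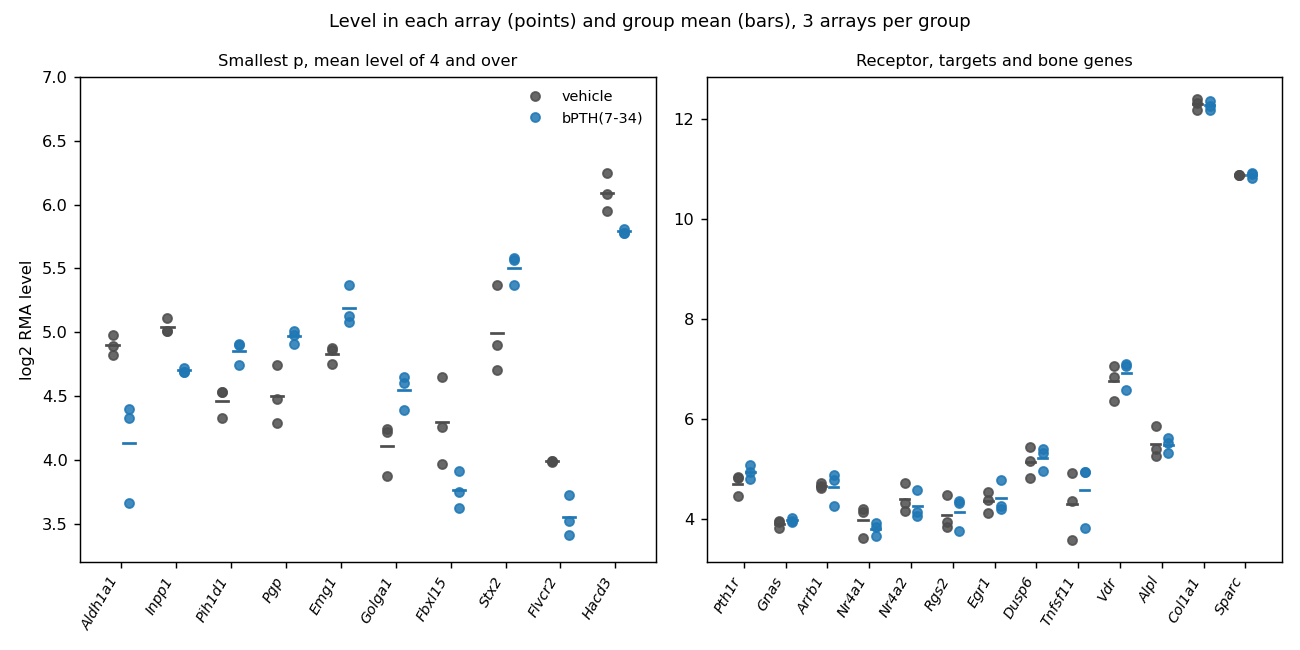
Log2 RMA level of single genes in each vehicle and bPTH(7-34) array (points, 3 per group) with group means (bars). Left, the 10 named genes with the smallest p, picked from these same values, where the groups overlap for Stx2 alone. Right, genes of the receptor pathway and of bone, from Pth1r at 4.45 to 5.08 to Col1a1 at 12.18 to 12.39.

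No gene at a mean level of 4 and over differed by as much as 2-fold. The largest differences upwards were in Ifnl2 (an interferon lambda, 0.63, interval from 0.05 to 1.22), Gtpbp8 (0.59), Rrp7a (a ribosomal RNA processing factor, 0.57), Cebpa (a transcription factor of fat and myeloid cells, 0.53) and Ptp4a1 (a phosphatase, 0.52). Rrp7a had 4.78, 4.34 and 4.04 with vehicle against 5.06, 5.01 and 4.80 with bPTH(7-34), and it alone of the 5 did not overlap between groups. Cebpa differed by 0.25 without bPTH(7-34) array 3, and Ptp4a1 by 0.20 without vehicle array 2. The largest differences downwards were in Apol9a (-0.97), Gbp11 (-0.84), Clec4e (-0.79), Aldh1a1 (-0.77) and Lilrb4a (-0.71). Apol9a and Gbp11 are interferon-induced genes, and Clec4e and Lilrb4a encode receptors of myeloid cells. Apol9a stood at 6.57, 6.42 and 6.06 with vehicle and at 6.22, 5.80 and 4.12 with bPTH(7-34). The lowest value came from bPTH(7-34) array 3, and without it the difference was -0.34 (interval from -0.84 to 0.16). Gbp11 differed by -0.48 without that array and by -0.40 without vehicle array 1. Without bPTH(7-34) array 1 the differences were -1.39 for Apol9a and -1.28 for Gbp11. With the array number added to the fit as a block, the interval of Apol9a ran from -1.673 to -0.267. That of Gbp11 ran from -1.215 to -0.472, and no gene was called in that fit. Leaving out 1 array moved 22 of the 44 named genes with an absolute difference of 0.3 or more by over 1.5 times, and 6 of these changed sign (Clec4e, Gbp4, Ibsp, Il6, Lilrb4a and Ptgs2).

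The narrowest limits were set largely by the fit, which draws the spread of each gene towards a common value. No margin at a mean level of 4 and over was under 0.165. Pacsin2, a membrane-bending protein of endocytosis, read 5.95, 5.96 and 5.96 in both groups, with an interval from -0.17 to 0.17. Similar intervals were found for Rfk (riboflavin kinase, from -0.21 to 0.13), Uqcrc2 (a subunit of respiratory complex III, from -0.18 to 0.15), Zmpste24 (the protease that matures lamin A, from -0.13 to 0.21) and Tax1bp1 (an autophagy receptor, from -0.17 to 0.16). For such a gene a change of 1.5-fold in either direction lies outside the interval. Zmpste24 did not overlap between the groups although its difference was 0.04, with 7.14, 7.13 and 7.14 against 7.18, 7.19 and 7.16.

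Differences of 2-fold or more occurred in 3 of 22180 genes, all of them upwards and all below a mean level of 4: Mir328, Mir3091 and Gm7104. Mir328, a microRNA gene, read 1.05, 0.50 and 1.42 with vehicle and 2.71, 2.47 and 1.84 with bPTH(7-34), a difference of 1.35 ± 0.31 (SE; adjusted p = 0.999). Its vehicle mean was under the background limit. Mir3091 read 2.43, 1.55 and 2.54 with vehicle and 4.02, 3.40 and 2.67 with bPTH(7-34), a difference of 1.19 ± 0.34 (SE; adjusted p = 0.999). The groups overlapped in neither. Gm7104, a predicted gene, differed by 1.02 and its groups overlapped. RefSeq (GRCm38.p6) held a mature sequence for 420 of the 483 microRNA genes measured. It held one for Mir3091 and none for Mir328, so the 2 arms of Mir3091 are printed, with the seed, bases 2 to 8, in capitals. Mir3091 was also the only gene of the 3 with a vehicle mean above the background limit. The arms lie on the plus strand at chr2:180257547-180257567 and chr2:180257580-180257601, and their seeds differ.
mmu-miR-3091-5p: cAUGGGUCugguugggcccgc
mmu-miR-3091-3p: cGGGCCUGaccagucucaagac
Of all microRNA genes 21 had a mean level of 4 and over, 17 of these were inside 2-fold, 11 had a difference above 0 and the median was 0.02.

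The receptor and its transducers had a median margin of 0.27, beside 0.29 for all genes at a mean level of 4 and over. Pth1r read 4.82, 4.84 and 4.45 with vehicle and 4.93, 4.80 and 5.08 with bPTH(7-34). The groups overlapped, and the difference of 0.23 ± 0.19 (SE) had an interval from -0.20 to 0.67, a limit of 1.59-fold upwards. It was 0.11 without vehicle array 3. Gnas, which encodes the alpha subunit of Gs, read 3.93, 3.95 and 3.81 against 3.94, 3.95 and 4.01, with an interval from -0.11 to 0.25. Gnaq, the alpha subunit of Gq, differed by -0.19 (interval from -0.55 to 0.17) and its close relative Gna11 by 0.08 (interval from -0.22 to 0.39). Of 23 measured genes of the receptor and its G proteins 14 had a mean level of 4 and over. All 14 were inside 2-fold and 13 inside 1.5-fold, 10 had a difference above 0, and the median was 0.07 beside 0.01 for all genes at that level.

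Receptor desensitisation and sorting genes centred on 0. Arrb1, which encodes beta-arrestin 1, read 4.72, 4.65 and 4.61 with vehicle and 4.88, 4.25 and 4.77 with bPTH(7-34), so the vehicle arrays fell between the outer bPTH(7-34) arrays. Its interval ran from -0.37 to 0.32. Arrb2 read 2.69, 2.69 and 2.71 against 2.65, 2.69 and 2.77, with an interval from -0.36 to 0.37. Vps26b, a retromer subunit, read 7.01 in all 3 vehicle arrays and 7.17, 7.06 and 7.11 with bPTH(7-34), with a difference of 0.10. Of 21 arrestin, receptor kinase and sorting genes at a mean level of 4 and over, 21 were inside 2-fold and 20 inside 1.5-fold, 11 were above 0, and the median was 0.00.

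The enzymes that make and read cAMP were bounded in the same way. Adcy6, an adenylyl cyclase, had an interval from -0.26 to 0.23, and Prkaca, the catalytic subunit of protein kinase A, from -0.24 to 0.36. The regulatory subunits Prkar2a and Prkar2b had differences of -0.26 and 0.24 (unadjusted p = 0.127 and 0.158). All 13 cyclase and kinase A genes at a mean level of 4 and over were inside 2-fold, and 7 were above 0. Among 10 phosphodiesterases and RGS proteins, which end cAMP and G protein signals, 9 were inside 2-fold and 3 were above 0. Pde7b was the exception: it read 8.81, 7.71 and 7.51 with vehicle and 8.42, 7.63 and 7.18 with bPTH(7-34), with an interval from -1.26 to 0.73. Rgs16 differed by 0.34, by 0.68 without vehicle array 1 and by 0.02 without vehicle array 2. On the Gq side, all 24 phospholipase C, protein kinase C and calcium signalling genes at that level were inside both 2-fold and 1.5-fold, with a median of 0.02.

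Genes known to follow cAMP and CREB had a median difference of -0.13, and 3 of 13 at a mean level of 4 and over were above 0. The share above 0 over all genes at that level was 51.6%. Between same-numbered arrays the median of the list was -0.22, 0.08 and -0.14 for numbers 1, 2 and 3. Of the 13, 12 were inside 2-fold, 7 inside 1.5-fold, and 0 were called (0% over all genes). Nr4a1, an early response nuclear receptor, read 4.19, 4.13 and 3.61 with vehicle and 3.83, 3.91 and 3.66 with bPTH(7-34), and Nr4a2 read 4.72, 4.15 and 4.31 against 4.13, 4.58 and 4.06. Both overlapped between groups, with intervals from -0.56 to 0.20 and from -0.61 to 0.34. Rgs2, an RGS protein induced by cAMP, read 4.47, 3.84 and 3.94 against 4.35, 3.76 and 4.31, and Crem, a CREB family factor, 2.29, 2.16 and 2.30 against 2.07, 2.30 and 2.17.

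Nfil3, a leucine zipper repressor also counted with the clock genes, had the one unadjusted p under 0.05 in this group. It read 5.35, 5.47 and 5.47 with vehicle and 4.87, 5.33 and 4.84 with bPTH(7-34), with no overlap. Its difference was -0.42 ± 0.16 (SE; interval from -0.77 to -0.06; adjusted p = 0.999). Ptgs2, the inducible prostaglandin synthase, was not inside 2-fold. It read 8.92, 8.08 and 8.09 with vehicle and 8.27, 8.82 and 6.77 with bPTH(7-34), where array 3 was the lowest of the 6. Its difference was -0.41 and became 0.18 without that array.

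The palindromic CRE, TGACGTCA, is the full-length site that CREB binds, and it reads the same on both strands. It occurs in 549 of the 27025 genes with a RefSeq (GRCm38.p6) promoter window of 250 bases before to 50 after the start, or 2.03%. Among 21 cAMP/CREB targets with such a window 2 held it, Dusp1 and Sst. The 30 bases around the motif are shown for both, in the direction of the gene, with the motif in capitals. The Dusp1 window lies at chr17:26508597-26508626 on the minus strand, with the motif's first base at -143 from the start, and that of Sst at chr16:23890874-23890903 on the minus strand, at -48.
Dusp1: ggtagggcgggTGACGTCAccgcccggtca
Sst: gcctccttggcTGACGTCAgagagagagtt
Dusp1, an ERK phosphatase, read 6.74, 6.12 and 5.84 with vehicle and 6.36, 6.24 and 5.70 with bPTH(7-34), with an interval from -0.79 to 0.52. Sst, the somatostatin gene, read 2.14, 1.88 and 1.63 against 1.80, 1.88 and 1.84, near the background limit. Over all genes at a mean level of 4 and over, 204 had the motif in this window. Of these 202 were inside 2-fold and 181 inside 1.5-fold, and the median difference was 0.01, as it was for the 5557 genes without it. An unadjusted p under 0.05 was found in 4 of the 204 and in 78 of the 5557, beside 1.42% of all genes at that level. A match is a description of letters, not of binding.

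ERK immediate early and feedback genes had a median of 0.00, with 10 of 21 at a mean level of 4 and over above 0 and 19 inside 2-fold. Egr1, a zinc finger factor induced within minutes of ERK activation, read 4.54, 4.12 and 4.38 with vehicle and 4.19, 4.26 and 4.78 with bPTH(7-34). Dusp6, a phosphatase of ERK, read 5.43, 4.82 and 5.16 against 5.32, 5.39 and 4.95. The intervals were from -0.41 to 0.54 for Egr1 and from -0.55 to 0.71 for Dusp6, and both groups overlapped. Myc differed by 0.07 (interval from -0.12 to 0.27). Fos read 2.27, 2.17 and 2.17 against 2.19, 1.92 and 2.14, with an interval from -0.34 to 0.10. The genes not inside 2-fold were Spry1, a feedback inhibitor of growth factor signals (-0.57, interval from -1.54 to 0.41, and -0.32 without bPTH(7-34) array 3), and Zfp36, an RNA-binding regulator of cytokine messages (-0.27, interval from -1.14 to 0.60). These levels were taken at 4 h and say nothing of earlier times. The kinases of the MAPK cascade had a median of 0.01 with 16 of 17 inside 2-fold.

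Survival and cycle genes were bounded about as widely as other genes at that level, with median margins of 0.29 and 0.32 beside 0.29. All 18 cell survival and death genes at a mean level of 4 and over were inside 2-fold with a median of 0.00, and all 21 cell cycle genes with a median of 0.03. Of these, 15 and 17 were inside 1.5-fold. Bcl2, which blocks apoptosis, read 4.64, 3.74 and 4.14 with vehicle and 4.61, 4.05 and 4.25 with bPTH(7-34), with an interval from -0.38 to 0.64. Ccnd1, the cyclin D1 gene, had an interval from -0.37 to 0.26 and Cdk1, the mitotic kinase, from -0.51 to 0.02 (unadjusted p = 0.0646).

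Bone matrix genes differed by little between the groups. Col1a1, the main bone collagen chain, read 12.18, 12.39 and 12.31 with vehicle and 12.18, 12.26 and 12.36 with bPTH(7-34), with an interval from -0.26 to 0.21. Sparc, which encodes osteonectin, read 10.88, 10.88 and 10.87 against 10.81, 10.89 and 10.91, with an interval from -0.21 to 0.19. Alpl, tissue-nonspecific alkaline phosphatase, read 5.26, 5.86 and 5.39 against 5.32, 5.62 and 5.51. Of 18 osteoblast differentiation and matrix genes at a mean level of 4 and over, 17 were inside 2-fold and 15 inside 1.5-fold, and the median was 0.00. Col11a1 was the exception, with an interval from -1.16 to 1.55, and its levels were lowest in array 1 of either group (6.15 and 6.49) and highest in array 3 (7.86 and 8.15). Sp7, below that level, read 1.46, 1.30 and 1.59 with vehicle and 2.34, 2.21 and 1.55 with bPTH(7-34). Its difference was 0.58 (unadjusted p = 0.0197), the groups overlapped, and its vehicle mean was under the background limit. Leaving out 1 array put the Sp7 difference between 0.43 and 0.825, highest without bPTH(7-34) array 3. Ibsp, bone sialoprotein, read 3.10, 4.34 and 4.08 against 2.29, 4.28 and 3.67, with the lowest value of each group in array 1.

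The bone list with the widest limits was that of factors that regulate osteoclasts. Of 15 genes at a mean level of 4 and over 9 were inside 2-fold and 4 inside 1.5-fold, and the median margin was 0.72. Tnfsf11, which encodes RANKL, the cytokine that drives osteoclast formation, read 4.92, 4.36 and 3.58 with vehicle and 4.94, 4.94 and 3.82 with bPTH(7-34). The lowest value of each group was that of array 3. Its interval, from -0.70 to 1.25, left room for a 2.39-fold change upwards. The difference was 0.28, and from -0.07 to 0.65 when 1 array was left out. Tnfrsf11b, which encodes the RANKL decoy osteoprotegerin, had a mean level under 4 and read 3.68, 3.57 and 3.54 against 4.03, 3.76 and 4.38. The groups did not overlap, and the difference of 0.46 ± 0.16 (SE) had an interval from 0.10 to 0.82 (unadjusted p = 0.0177, adjusted p = 0.999). Without bPTH(7-34) array 3 it was 0.30 (interval from -0.02 to 0.62, unadjusted p = 0.0651). The other genes not inside 2-fold were Il6, Cxcl1, Tnf, Il1a and Il1b. Csf1, the macrophage growth factor, was inside 1 log2 unit (interval from -0.62 to 0.34), as was Wnt5a (difference 0.36, and 0.20 without vehicle array 2).

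Paracrine pathways of bone came next. All 22 Wnt pathway genes, all 28 genes of the IGF, FGF, EGF and angiogenic factors, and 24 of 26 TGF-beta and BMP genes at a mean level of 4 and over were inside 2-fold. Their medians were 0.04, -0.01 and 0.00. Igf1, a growth factor stored in bone, read 7.23, 7.67 and 8.05 with vehicle and 7.23, 7.65 and 8.10 with bPTH(7-34), and Rspo2, a Wnt amplifier, 7.37, 8.02 and 8.05 against 7.43, 7.77 and 8.27. In both genes array 1 was lowest and array 3 highest in either group, so that the spread within a group was wider than the differences of 0.01 between the groups. Mmp13, a collagenase, had an interval from -0.46 to 0.36, and 24 of 25 matrix proteases and inhibitors were inside 2-fold. Of 28 actin and SRF/YAP target genes 27 were inside 2-fold and 23 were above 0, with a median of 0.05. The share above 0 over all genes at that level was 51.6%. Ccn2, a matricellular YAP target, read 4.76, 4.61 and 4.30 against 4.41, 4.97 and 5.19, with a difference of 0.30 that was 0.13 without bPTH(7-34) array 3.

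Housekeeping and core machinery had narrow bounds, with median margins of 0.22 for ribosomal proteins, 0.23 for oxidative phosphorylation and 0.25 for the proteasome. All 40 cytosolic ribosomal protein genes, all 59 oxidative phosphorylation subunits and all 34 proteasome subunits at a mean level of 4 and over were inside 2-fold, and 37, 57 and 33 of them inside 1.5-fold. Their medians were 0.04, 0.02 and 0.01. Gapdh had an interval from -0.28 to 0.26 and Actb from -0.28 to 0.34. Among 16 glycolysis genes all were inside 2-fold and 4 were above 0. Between same-numbered arrays their median was -0.16, 0.12 and -0.045 for numbers 1, 2 and 3. Pfkfb3, which sets the level of a glycolysis activator, read 4.65, 4.19 and 4.50 with vehicle and 4.10, 4.27 and 3.89 with bPTH(7-34), overlapping groups with a difference of -0.36 (unadjusted p = 0.0321). All 24 cholesterol and lipid synthesis genes were inside 2-fold with a median of 0.02. Of 23 unfolded protein and ATF4 response genes 22 were inside 2-fold, and Edem1, which helps clear misfolded glycoproteins, had a difference of -0.25 without overlap (unadjusted p = 0.0262). Of 23 hypoxia and NRF2 antioxidant genes 22 were inside 2-fold and 2 were above 0, with a median of -0.07. Between same-numbered arrays that median was -0.13, 0.12 and -0.13 for numbers 1, 2 and 3. Among lists with 6 or more genes at that level, the largest absolute median was that of 8 adipocyte markers, at 0.22 with 6 above 0 and 6 inside 2-fold. The log2 summed level of all 11 adipocyte markers measured was 9.10, 8.73 and 8.84 in the vehicle arrays and 9.34, 8.81 and 9.26 in the bPTH(7-34) arrays. The groups overlapped, and each bPTH(7-34) array was above the vehicle array of its number.

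**Figure D3:**
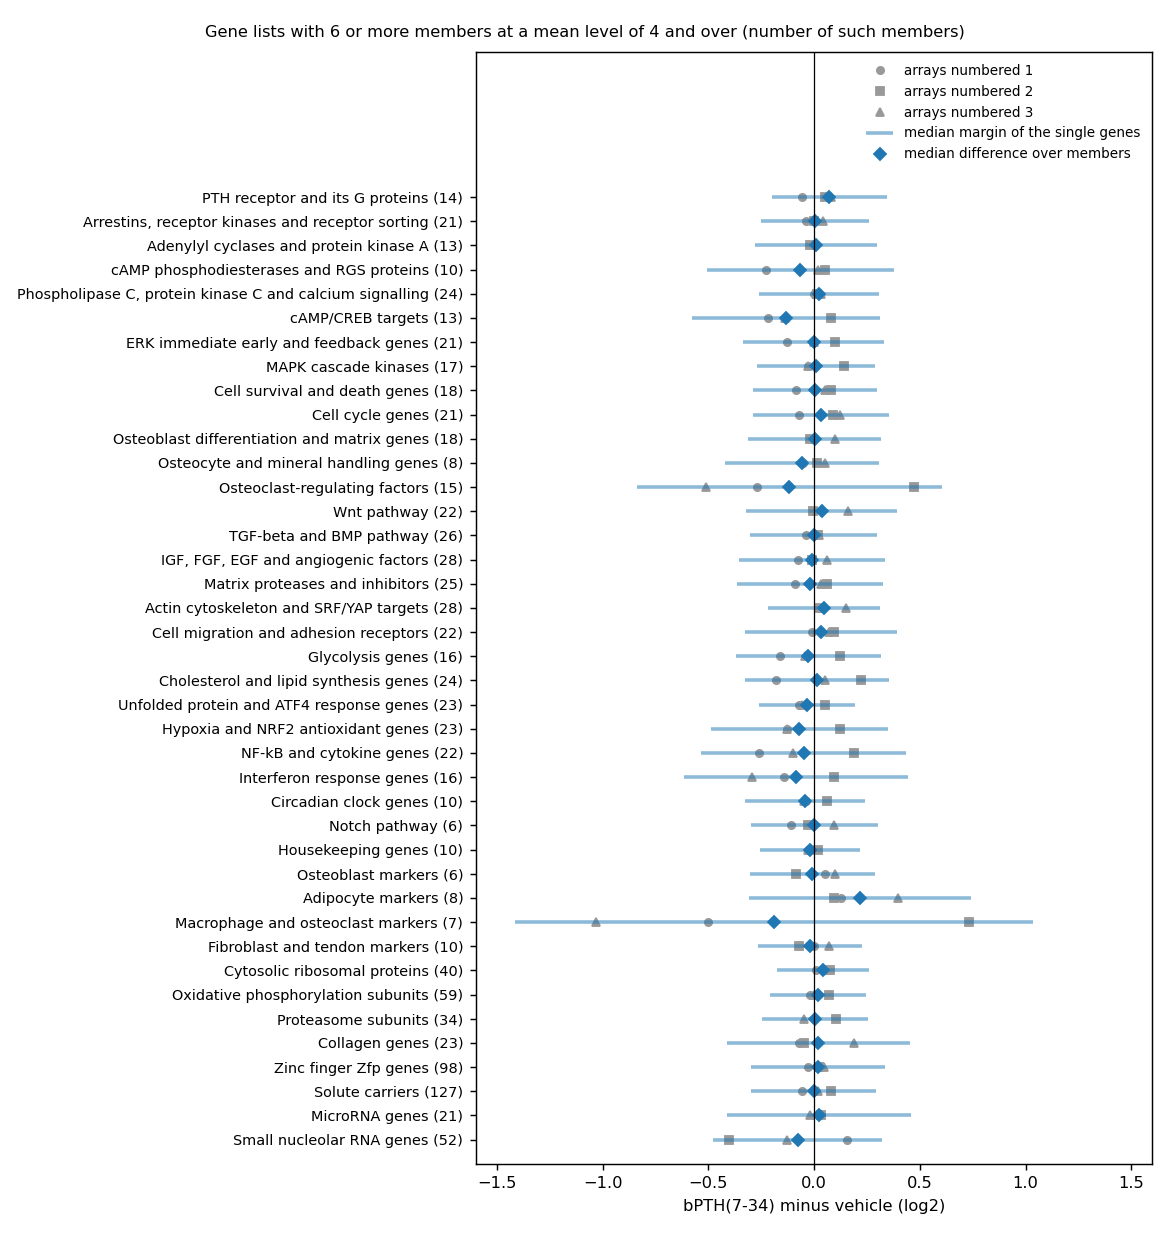
Median difference of bPTH(7-34) minus vehicle (log2) over the members of each gene list with a mean level of 4 and over (diamonds), with the median margin of single genes (bars) and the median difference between same-numbered arrays (grey symbols). The medians of cAMP/CREB targets (-0.13), osteoclast-regulating factors (-0.12), adipocyte (0.22) and macrophage markers (-0.19) lie farthest from 0, and the macrophage list has the widest bar.

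Wide limits often went with an extreme value in a single array. Of the 7255 genes at a mean level of 4 and over 170 were not inside 2-fold, 87 left room for that change upwards and 129 downwards. In 93 of the 170 bPTH(7-34) array 3 was the lowest of the 6 arrays, which it was in 15.3% of all genes at that level, and in 89 vehicle array 1 was the highest, against 33.8%. The number not inside 2-fold was 249 without vehicle array 1, 285 without vehicle array 2, 304 without vehicle array 3, 320 without bPTH(7-34) array 1, 295 without array 2 and 233 without array 3. Xist, the RNA of the inactive X chromosome, had the widest interval at that level, from -3.49 to 3.43. With the array number added to the fit as a block, the interval ran from -0.29 to 0.23. Xist read 1.73, 5.43 and 5.98 with vehicle and 1.80, 5.43 and 5.82 with bPTH(7-34). The Y-linked Uty read 4.64, 0.94 and 1.63 against 4.36, 0.77 and 1.68. Array 1 of every group, hPTH(1-34) included, was low in Xist and high in Uty, Eif2s3y and Kdm5d, and arrays 2 and 3 the reverse. The labels do not give the sex of the cells.

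Among the 5 named genes with the widest intervals were Lilrb4a and Clec4e, which encode receptors of myeloid cells. Lilrb4a read 8.06, 7.08 and 7.23 with vehicle and 7.26, 7.97 and 5.00 with bPTH(7-34), with an interval from -2.74 to 1.31. Clec4e read 6.89, 6.14 and 6.43 against 6.21, 7.00 and 3.88. In both array 3 was far below the other bPTH(7-34) arrays, while array 2 was above 2 or more vehicle arrays, and without array 3 the differences were 0.16 and 0.12. The same order was seen in Cd68, a lysosomal macrophage protein, with 5.79, 4.47 and 4.66 against 4.78, 5.12 and 3.55, and in Il6, with 7.70, 7.47 and 7.41 against 7.32, 7.97 and 5.91. Il6 differed by -0.46, and by 0.12 without array 3.

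Of 21 macrophage and osteoclast markers all were measured, and 11 were lower in bPTH(7-34) array 3 than in every vehicle array. Their log2 summed level was 9.32, 8.29 and 8.70 with vehicle and 8.78, 8.97 and 7.92 with bPTH(7-34). In the hPTH(1-34) arrays it was 9.43, 8.53 and 7.79, lowest again in array 3. Of the 21, 7 were above 0 and 4 had a mean under the background limit. Among the 7 markers at a mean level of 4 and over 3 were inside 2-fold. The cytokine genes Il1b, Tnf, Cxcl1 and Ptgs2 were also lowest of the 6 arrays in bPTH(7-34) array 3, and the part of macrophage content in their values was not tested. Of 22 NF-kB and cytokine genes 19 were inside 2-fold, and of 16 interferon response genes 14. Of the 16, 1 was above 0, the median was -0.09, and 0 had an unadjusted p under 0.05. Between same-numbered arrays that median was -0.145, 0.095 and -0.295 for numbers 1, 2 and 3. Without array 3 the interferon genes Usp18 and Ifit1 differed by -0.01 and 0.07, in place of -0.24 and -0.18. Endothelial, skeletal muscle and blood cell markers had no member at a mean level of 4 and over among 13, 14 and 7 measured.

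**Figure D4:**
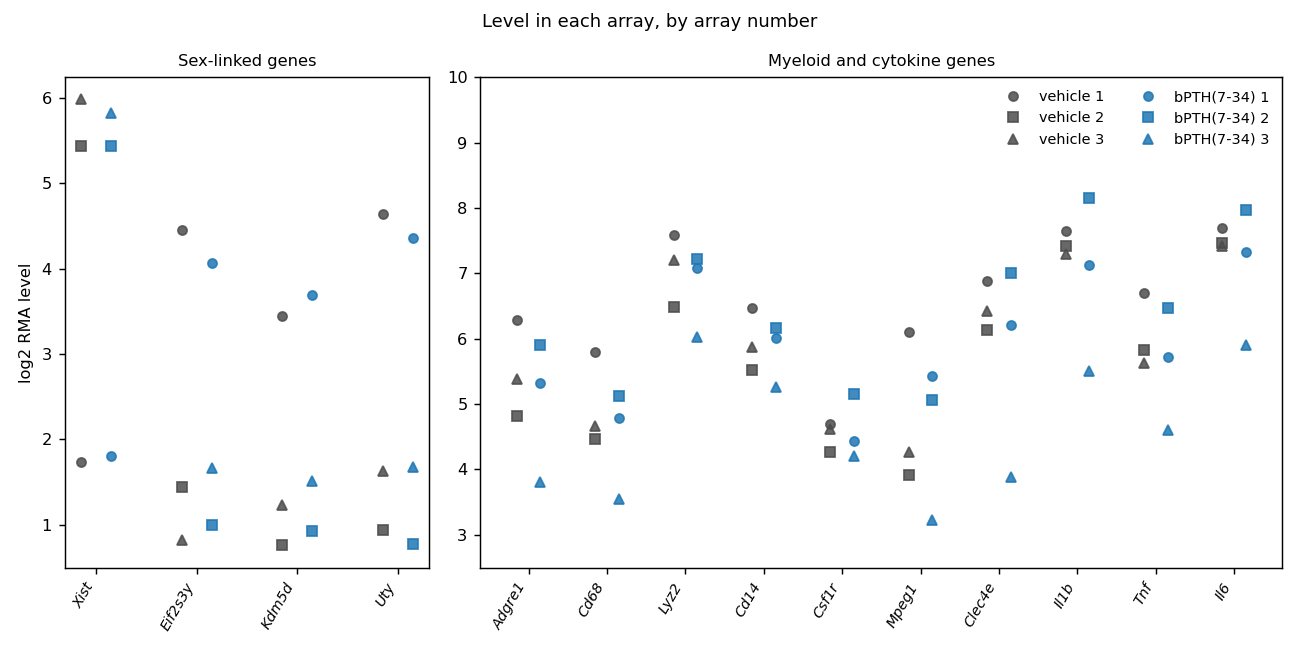
Log2 RMA level in each vehicle and bPTH(7-34) array by array number, for sex-linked genes (left) and for myeloid and cytokine genes (right). Array 1 of both groups is low in Xist (1.73 and 1.80), and bPTH(7-34) array 3 is the lowest of the 6 arrays in each myeloid and cytokine gene shown, from 3.23 in Mpeg1 to 6.03 in Lyz2. The genes shown were picked. Of all 21 macrophage and osteoclast markers 11 were lower in that array than in every vehicle array. Acp5, not shown, read 4.75 there against 4.72, 4.74 and 4.73 with vehicle.

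The sizes seen with the agonist give a scale for these limits. hPTH(1-34) at 100 nM against the same vehicle arrays called 106 genes (0.478%), 73 higher and 33 lower, with a median size of 1.08. The bPTH(7-34) and hPTH(1-34) comparisons share the vehicle arrays and their doses differ, so the values are listed together and no matched-dose comparison is made. In these 106 genes the median bPTH(7-34) difference, taken in the direction of hPTH(1-34), was 0.01, with a range from -0.35 to 0.65, and 55 were above 0. The 106 were picked for hPTH(1-34) differences that were large beside the same estimate of the spread. A bPTH(7-34) interval around a difference near 0 therefore had to end short of that size, and the counts that follow only describe. For 105 of the 106 the bPTH(7-34) interval ended short of the hPTH(1-34) size, taken without its own error. For 86 it ended short of 0.5 of that size on the log2 scale. The exception was Olfr706, an olfactory receptor gene with both group means under the background limit. The interval held 0 in 95 genes, lay inside 2-fold in 101 and inside 1.5-fold in 75. Of the 106, 83 also differed between the arrays of both peptides directly (adjusted p under 0.05, which 0.505% of all genes reached). That is a difference between 100 nM of one peptide and 1 µM of the other. It also uses the hPTH(1-34) arrays by which the 106 were picked, so the count is no separate result.

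The largest agonist effect was in Dgat1, which makes triglyceride. It read 4.63, 4.47 and 4.48 with vehicle and 5.15, 4.65 and 4.78 with bPTH(7-34), and the groups did not overlap. The bPTH(7-34) difference was 0.33 ± 0.26 (SE; interval from -0.25 to 0.91), and 0.19 without bPTH(7-34) array 1, beside 3.71 for hPTH(1-34). Vdr, the vitamin D receptor, read 7.06, 6.83 and 6.35 against 7.10, 7.05 and 6.58, with a difference of 0.16 (interval from -0.34 to 0.66) beside 2.23. Nr4a3 read 2.18, 2.27 and 2.05 against 1.94, 2.01 and 1.93, all bPTH(7-34) arrays below all vehicle arrays, with a difference of -0.21 (interval from -0.71 to 0.30) beside 2.79. For Abhd5, an activator of triglyceride breakdown, the values were 0.10 and 1.21.

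Genes that hPTH(1-34) lowered gave the same kind of bound. Rspo2 differed by 0.01 (interval from -0.51 to 0.53) beside -1.53, and Bmp4, a bone morphogenetic protein, by 0.00 (interval from -0.54 to 0.54) beside -1.41. Scx, a tendon transcription factor, differed by 0.20 beside -0.66.

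In 11 of the 106 genes bPTH(7-34) against vehicle had an unadjusted p under 0.05, which 3.28% of all genes had, each with its difference in the direction of hPTH(1-34). They were Tpcn2, Gnl2, Ntrk2, Kcne4, Pik3ip1, Gm13375, Ift74, Olfr706, Atg10, Brinp3 and Ctu1. Both differences are taken from the same vehicle arrays, so the shared direction is no independent reading. Tpcn2, a lysosomal calcium channel, read 5.52, 5.44 and 5.69 with vehicle and 5.90, 5.74 and 5.84 with bPTH(7-34), with no overlap and a difference of 0.28 (interval from 0.01 to 0.54) beside 1.23. Ntrk2, a neurotrophin receptor, had 0.44 (interval from 0.17 to 0.71) beside 1.14, and Kcne4, a potassium channel subunit, 0.65 (interval from 0.26 to 1.04) beside 1.36.

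Room for a 2-fold change remained in 5 of the 106 genes. They were Kcne4, Dgkh, Kcnk10, Chst11 and Tnfsf11. For Dgkh, a diacylglycerol kinase, the interval ran from -0.17 to 1.26 beside an agonist difference of 2.16, and for Kcnk10, a potassium channel, from -1.27 to 0.62 beside 2.79.

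**Figure D5:**
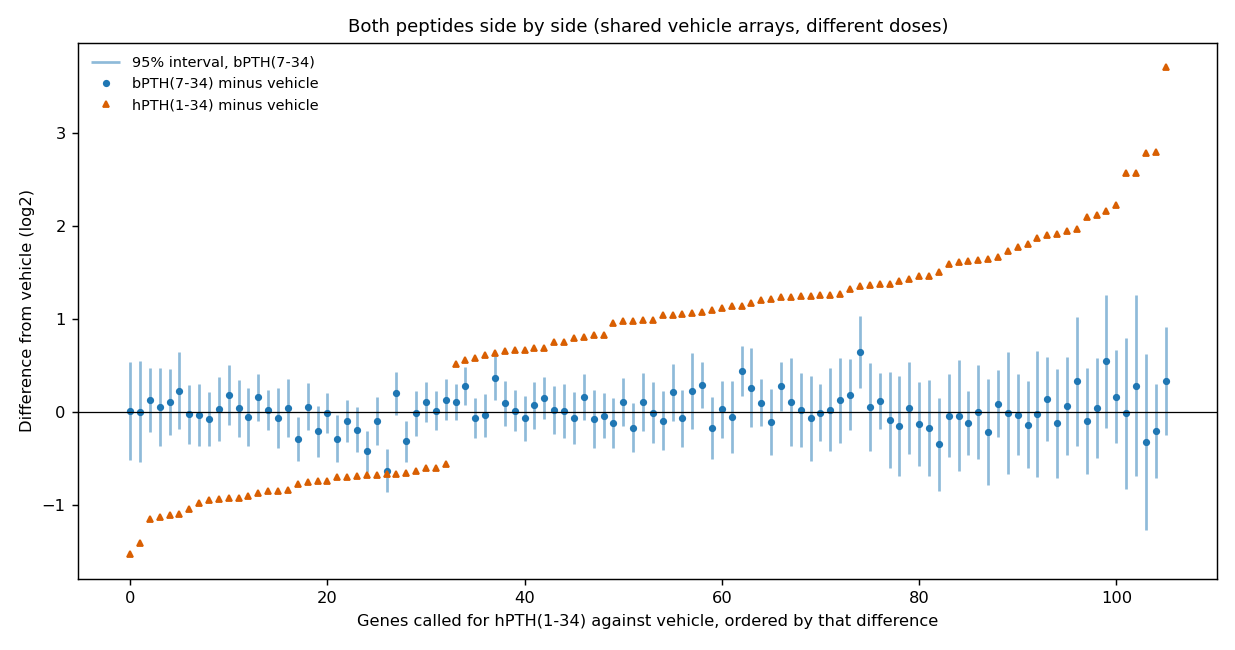
Difference from vehicle (log2) in the 106 genes called for hPTH(1-34), ordered by the hPTH(1-34) difference (triangles), with the bPTH(7-34) difference (circles) and its 95% interval (bars). The bPTH(7-34) points lie between -0.63 and 0.65, and the interval reaches the hPTH(1-34) size in Olfr706 alone. Both differences use the same vehicle arrays, the doses differ, and the genes were picked for their hPTH(1-34) difference.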

How the data were processed

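RNA of 9 samples was measured on arrays, and the deposited values are log2 levels, 1 for each transcript cluster. The submitters' processing notes name Affymetrix Expression Console and RMA (versions not given in the sources used here). RMA commonly equalises the arrays' distributions, so a shift of all genes together would not be seen. Of 41345 clusters 23521 had exactly 1 gene symbol in the array annotation, and those with several (1814) or none (16010) were left out. Where a gene had several clusters, the one with the highest mean was used.

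All 9 arrays were fitted together, by group alone, with limma 3.58.1 (lmFit, eBayes) in R 4.3.3, two-sided, with 6 residual and 3.19 prior degrees of freedom. It gave p-values, Benjamini-Hochberg adjusted p over 22180 genes (threshold 0.05) and 95% intervals. P-values measure the spread between these samples. The widened intervals use 0.05 divided by the number of genes. The code was tested on simulated data.

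Genes were named by rule: the 10 smallest p, the 5 largest differences each way and the 5 narrowest and widest intervals at a mean level of 4 and over, passing over predicted and small RNA genes; up to 2 genes per list; the 5 smallest p for hPTH(1-34); and fixed genes. Others were chosen after their values were seen. Of 951 entries in 36 gene lists 871 were measured, 3 under another symbol, and 10 symbol families were added. The members, lists and rules were chosen with earlier results of these data known, and so support nothing on their own. The background limit and the promoter motif were added after seeing the data. Alternatives were the array number as a block, other filters and clusters, renormalisation, another eBayes, array weights, the 6 arrays alone and each array left out. Plots used matplotlib 3.10.9 in Python 3.11.15.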

Additional observations from a re-analysis of the deposited data

How the results depend on the processing

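No gene was called under any of the alternatives or at a threshold of 0.1. The median margin ran from 0.29 to 0.35, widest with every cluster, and the share inside 2-fold was 88.3% with every cluster and 95.5% to 98.5% otherwise. The share of widened intervals inside 4-fold (77.5%) became 49.3% with every transcript cluster of the table, 46.8% with the 6 arrays of vehicle and bPTH(7-34) alone, and 55.9% to 58.1% when one array was left out. Genes at an unadjusted p under 0.05 (3.28%) became 1.53% among genes with a mean of at least 4, and 3.28% to 4.78% when one array was left out, highest without vehicle array 1. Of 2339 values of named genes 6 moved by at least the gene's own SD in the fit. Leaving out 1 of 3 arrays moves a mean by only part of that array's deviation, so this count does not show stability. By the mark of 1.5 times, leaving out 1 array moved 22 of the 44 named genes with an absolute difference of 0.3 or more. As no gene was called, no call could turn, but the sign of the difference changed in 65 of the 2339 values, in 35 of 147 genes. Of these sign changes 59 came with 1 array left out. Of 672 list medians 32 moved by at least the SD of the list's 3 medians between same-numbered arrays.

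The fit left the array number out, because the rule asked every same-numbered pair of vehicle and bPTH(7-34) arrays to correlate above 0.1. Their deviations correlated from 0.07 to 0.54 over genes, and those of differently numbered arrays from -0.47 to 0.18. Over the 3 groups 8 of 9 same-numbered pairs passed 0.1, and vehicle array 2 correlated better with bPTH(7-34) array 3 (0.18) than with array 2. The sex-linked genes followed the numbers in all 3 groups, so arrays of the same number may come from the same preparation, which the labels do not say. If so, the margins of the main fit include differences between preparations. With the array number as a replicate block 0 genes were called, 933 (4.21%) had an unadjusted p under 0.05, the median margin was 0.29, and 72 genes at a mean level of 4 and over were not inside 2-fold in place of 170. The interval of Xist then ran from -0.29 to 0.23.

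Limits: with 3 arrays a group, changes under about the margin of a gene cannot be seen, and a change above it need not pass adjustment over all genes. Aldh1a1 differed by -0.77 with a margin of 0.40, and its adjusted p in the limma test was 0.999. Other times and doses were not measured, and levels near background set no limit on RNA.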

Other observations

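Small nucleolar RNAs, which guide chemical modification of ribosomal RNA, were measured for 73 genes, 52 of them at a mean level of 4 and over. Of the 52, 49 were inside 2-fold and 27 inside 1.5-fold, 11 had a difference above 0, and the median was -0.08, beside 0.01 for all genes at that level. The median between same-numbered arrays was 0.16, -0.41 and -0.13 for numbers 1, 2 and 3. Snord47 read 10.30, 10.67 and 10.40 with vehicle and 10.39, 9.95 and 9.67 with bPTH(7-34), overlapping groups with a difference of -0.45 (unadjusted p = 0.0362) that was -0.29 without bPTH(7-34) array 3. Snora7a had a difference of -0.43 (unadjusted p = 0.0287), from -0.59 without bPTH(7-34) array 3 to -0.315 without bPTH(7-34) array 2.

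Other families had medians near 0. Among 98 Zfp zinc finger genes at a mean level of 4 and over 97 were inside 2-fold, 54 were above 0 and 4 had an unadjusted p under 0.05 (1.42% of all genes at that level), with a median of 0.02. Zfp960 read 6.24, 6.13 and 6.39 with vehicle and 6.76, 6.63 and 6.40 with bPTH(7-34), with a difference of 0.34 and no overlap. Of 127 solute carriers 120 were inside 2-fold with a median of 0.00. Mir466h read 4.17, 4.64 and 4.40 against 3.78, 3.32 and 4.14, a difference of -0.66 without overlap (unadjusted p = 0.00796). It was -0.85 without bPTH(7-34) array 3 and -0.44 without bPTH(7-34) array 2.

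The remaining lists gave similar bounds at a mean level of 4 and over. All 8 osteocyte and mineral handling genes, all 10 circadian clock genes, all 6 Notch pathway genes and all 10 housekeeping genes were inside 2-fold, with medians of -0.06, -0.04, 0.00 and -0.02. Of 22 migration and adhesion receptors 21 were inside 2-fold with a median of 0.03, and Itga2, a collagen receptor subunit, was not. Of 23 collagen genes 19 were inside 2-fold with a median of 0.02. Col8a2 read 4.19, 4.78 and 4.70 with vehicle and 4.71, 4.77 and 5.25 with bPTH(7-34), with overlapping groups and a difference of 0.35, which was 0.17 without vehicle array 1. Of 10 fibroblast and tendon markers 9 were inside 2-fold, and of 4 chondrocyte markers 2, with Col2a1 and Comp outside.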
